A study of Mus musculus with 4 samples.

Results

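The genes described here are 10 regulators and feedback genes of ATF4, the transcription factor at the centre of the integrated stress response: Atf4, Atf5, Atf3, Ddit3, Trib3, Sesn2, Ppp1r15a, Nupr1, Eif4ebp1 and Chac1. They were chosen by symbol, and all 10 were found among the 22186 genes of the deposited expression tables. RNA had been sequenced from MC38, a mouse colon carcinoma cell line, stably transfected with a vector that expresses CXCL14, a secreted chemokine, from a TetOn promoter, which the drug doxycycline switches on. The doxycycline group was 2 cultures given 1 µg/mL doxycycline, and the control group was 2 cultures of the same line given an equal volume of PBS, all harvested after 72 h. Both groups carried the construct. No library came from cells given doxycycline without it, so an effect of the drug and an effect of CXCL14 cannot be told apart. The sources used here do not say whether the line is 1 clone.

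In the integrated stress response, kinases that sense amino acid shortage, double-stranded RNA, haem shortage or stress in the endoplasmic reticulum (ER) phosphorylate the translation factor eIF2. Bulk protein synthesis then falls, while the mRNAs of ATF4 and ATF5, held back by short upstream reading frames, are translated better. ATF4 pairs with other leucine zipper proteins and switches on genes of amino acid supply, together with genes that tune or end the response: a phosphatase subunit that removes the phosphate from eIF2, a pseudokinase that binds ATF4, and brakes on mTORC1 signalling and on cap-dependent translation. The data here are RNA levels, so neither ATF4 protein nor eIF2 phosphorylation was measured.

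Levels are in TPM, which are scaled by transcript length and by library total and can be set side by side between genes. Read counts were not among the values used here, and sequencing depth is unknown. The series text calls the 2 samples of a group biological replicates. Cxcl14, the gene under the inducible promoter, stood at 385 and 391 TPM with doxycycline against 27.3 and 29.2 TPM in the controls. Of 11 colon epithelium markers, 11 had a mean below 1 TPM, and Cdh1, Krt19, Cdx1 and Cdx2 were listed at 0 in every library, so these RNA levels do not show the epithelial origin of the line. The 11 macrophage markers summed to 7.60 and 9.06 TPM with doxycycline and 12.1 and 10.4 TPM in the controls, with C1qa, C1qc and Laptm5 listed at 0 in each library. The 9 fibroblast markers summed to 909 and 823 TPM with doxycycline against 4053 and 4205 TPM in the controls. Among them Thy1 was at 0 throughout, and Col1a2, Lum and Fap were below 1 TPM in every library. Dcn made up most of that sum, at 485 and 464 TPM with doxycycline against 3075 and 3259 TPM in the controls. Pdgfra, Pdgfrb and Col3a1 fell as well, while Col1a1 did not pass the test described below (log2 fold change 0.15, limma adjusted p = 0.52). The part of that difference in the results below was not tested, and in bulk RNA fewer cells of a type and less RNA per cell cannot be told apart. The 7 endothelial markers summed to 7.97 to 10.4 TPM over the 4 libraries and the 7 listed T and B cell markers to less than 1 TPM in each.

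Every one of the 10 genes was higher with doxycycline. The ratio of mean TPM ran from 2.10 for Nupr1 to 7.42 for Atf3, and in each of the 10 genes both doxycycline libraries lay above both control libraries, as they did in 37.7% of all tested genes. The test was limma on log2(TPM + 1), fitted over the 11359 genes that averaged 1 TPM or more, and a gene is said to have risen or fallen where its Benjamini-Hochberg adjusted p was under 0.05. By that test 10 of 10 rose, where 64.4% of all tested genes passed, 29.0% as higher and 35.4% as lower. Their median log2 fold change was 1.50, against -0.04 over all tested genes. The gene with the smallest change, Nupr1, was 333rd in order of log2 fold change, so 2.93% of tested genes changed at least as far upward. The genes were picked with results of these data known, so these positions describe them and are no independent test. With 2 libraries a group the smallest p of a two-sided exact permutation test is 0.33, so each p printed rests on the spread that limma shares over genes. Together the 10 genes summed to 4913 and 5208 TPM with doxycycline against 1971 and 1821 TPM in the controls, or 0.504% and 0.536% of listed TPM against 0.202% and 0.187%.

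**Figure D1:**
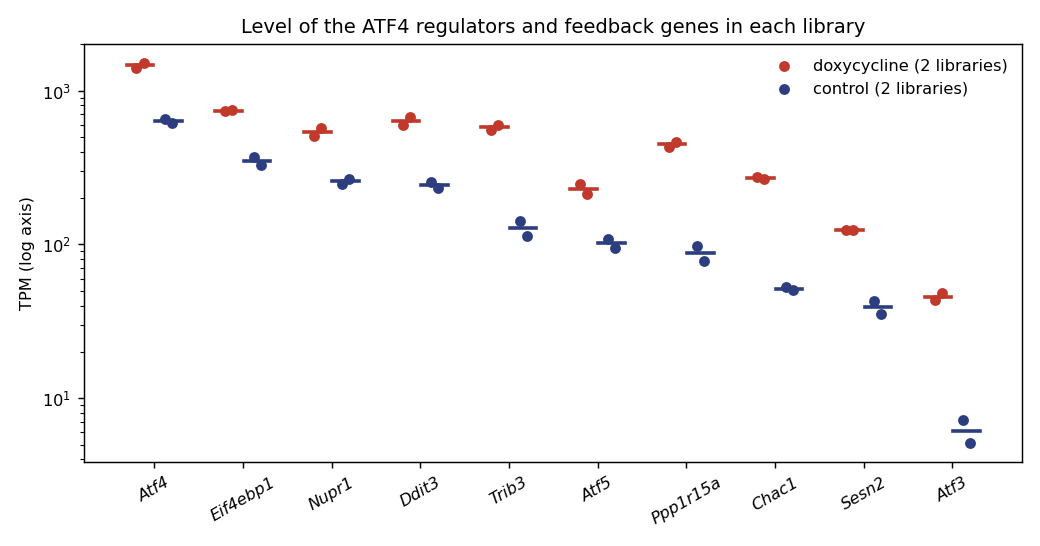
TPM on a log axis for each of the 10 genes, ordered by their mean in the controls, with a point for each library and a bar at the group mean. In every gene both doxycycline points lie above both control points, an order that 37.7% of all tested genes show, from Atf4 at 1406 and 1510 TPM with doxycycline down to Atf3 at 43.3 and 48.2 TPM.

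Atf4 and Atf5 encode related leucine zipper factors whose translation is raised by eIF2 phosphorylation. Atf4 had 1406 and 1510 TPM in the doxycycline libraries, against 651 and 619 TPM in the controls. The groups did not overlap, and the mean of 1458 ± 73.8 TPM with doxycycline stood against 635 ± 22.0 TPM in the controls (SD, n = 2 each), a log2 fold change of 1.20 (SE 0.07, limma adjusted p = 8.2e-07). Atf4 was the most abundant of the 10 genes in both groups, and by level it was 41st of the tested genes with doxycycline and 155th in the controls. Atf5, which is also linked to the mitochondrial unfolded protein response, had 246 and 212 TPM with doxycycline, against 108 and 95.5 TPM in the controls. The libraries of the 2 groups were apart here too, with a log2 fold change of 1.16 (SE 0.09, limma adjusted p = 3.8e-06). The 95% intervals of the 2 changes, 1.04 to 1.36 for Atf4 and 0.96 to 1.35 for Atf5, overlapped over most of their length.

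Atf3, Ddit3 and Nupr1 encode nuclear factors induced downstream of ATF4. Atf3, a leucine zipper factor that can repress its own targets, had 43.3 and 48.2 TPM with doxycycline against 7.21 and 5.11 TPM in the controls. It was the least abundant of the 10 genes in both groups and had the largest change, with a log2 fold change of 2.72 (SE 0.14, limma adjusted p = 3.4e-07). Both doxycycline libraries were far above both controls. Because 1 TPM is added before the log, that fold change understates the change of a gene as low as Atf3 in the controls. Ddit3 encodes CHOP, a C/EBP-family factor linked to cell death under lasting stress. It had 595 and 670 TPM with doxycycline against 255 and 231 TPM in the controls, groups that stayed apart, with a log2 fold change of 1.38 (SE 0.08, limma adjusted p = 6.8e-07). Nupr1, a small chromatin-associated stress protein, had 506 and 571 TPM with doxycycline against 249 and 265 TPM in the controls. Doxycycline replicate 2 was the highest and the controls lay close together, and the log2 fold change was 1.06 (SE 0.07, limma adjusted p = 2.5e-06).

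Ppp1r15a and Trib3 act back on the pathway. Ppp1r15a encodes GADD34, the stress-induced subunit that directs protein phosphatase 1 to eIF2. It had 428 and 464 TPM with doxycycline against 97.1 and 78.0 TPM in the controls. Both doxycycline libraries were more than 4-fold above the higher control, with a log2 fold change of 2.34 (SE 0.10, limma adjusted p = 1.2e-07). Trib3, a pseudokinase that binds ATF4 and the kinase AKT, had 557 and 594 TPM with doxycycline against 142 and 113 TPM in the controls. The groups were apart, the controls differed from each other more in proportion than the doxycycline libraries did, and the log2 fold change was 2.17 (SE 0.10, limma adjusted p = 2.2e-07).

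Sesn2 and Eif4ebp1 restrain growth signalling and translation. Sesn2 encodes a leucine-sensing sestrin that holds back mTORC1, and it had 123 and 124 TPM with doxycycline against 43.1 and 35.5 TPM in the controls. The doxycycline libraries were nearly equal, and the log2 fold change was 1.63 (SE 0.09, limma adjusted p = 5.4e-07). Eif4ebp1 encodes a protein that binds the cap-binding factor eIF4E and blocks cap-dependent translation. It had 734 and 749 TPM with doxycycline against 367 and 328 TPM in the controls, and was second to Atf4 in level in both groups. Its groups did not overlap, with a log2 fold change of 1.09 (SE 0.07, limma adjusted p = 1.5e-06). Chac1, an enzyme that breaks down glutathione, had 274 and 267 TPM with doxycycline against 52.7 and 50.2 TPM in the controls. The replicates of both groups lay close together, and the log2 fold change of 2.37 had the smallest SE of the set (0.06, limma adjusted p = 9.2e-09).

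**Figure D2:**
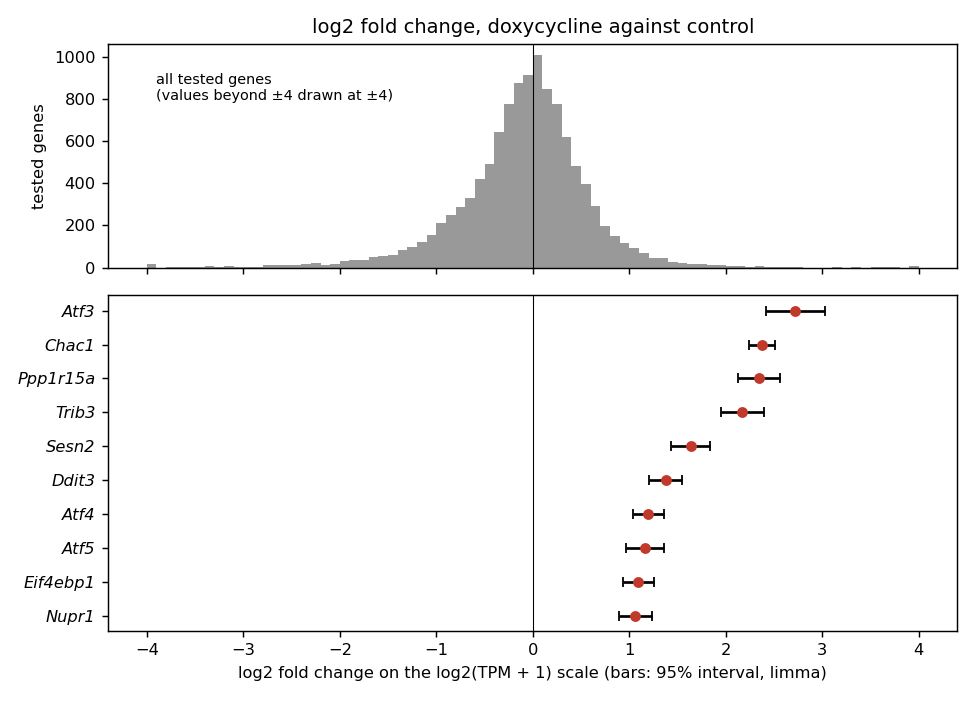
Top, the number of tested genes at each log2 fold change, doxycycline against control, with values beyond 4 in size drawn at the edge; bottom, the 10 genes with limma's 95% intervals on the log2(TPM + 1) scale. The 10 lie between 1.06 (Nupr1) and 2.72 (Atf3), to the right of the bulk of genes.

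By size of change the genes fell into an upper and a lower range. Atf3, Chac1, Ppp1r15a and Trib3 had log2 fold changes between 2.17 and 2.72, and their 95% intervals overlapped between neighbours in that order. Sesn2 followed at 1.63, a step of 0.54 below Trib3, and its interval of 1.43 to 1.83 did not meet that of Trib3 (1.95 to 2.40) but overlapped that of Ddit3 (1.20 to 1.55). Ddit3, Atf4, Atf5, Eif4ebp1 and Nupr1 lay between 1.06 and 1.38, with intervals overlapping from each to the next. The genes highest in the controls were thus not those that changed most. The difference of group means was 823 TPM for Atf4 and 39.6 TPM for Atf3, while the ratio of means was 2.30 for Atf4 and 7.42 for Atf3.

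The unequal changes altered the order of levels. In the controls the order was Atf4, Eif4ebp1, Nupr1, Ddit3, Trib3, Atf5, Ppp1r15a, Chac1, Sesn2 and Atf3, and the libraries overlapped between Nupr1 and Ddit3 and between Atf5 and Ppp1r15a. With doxycycline Ddit3 and Trib3 stood above Nupr1, and Ppp1r15a and Chac1 stood above Atf5, with an overlap between Trib3 and Nupr1 only. Set against Atf4 in the same library, Trib3 was 39.6% and 39.3% of the Atf4 level with doxycycline, against 21.9% and 18.2% in the controls. Ppp1r15a was 30.5% and 30.7% of Atf4 with doxycycline against 14.9% and 12.6% in the controls. Both feedback genes were higher relative to Atf4 in each doxycycline library than in either control. Chac1 was 19.5% and 17.7% of Atf4 with doxycycline and 8.10% in both controls. Sesn2 was 8.49% ± 0.407 of Atf4 with doxycycline against 6.19% ± 0.630 in the controls (SD, n = 2 each), with no overlap of the libraries. Ddit3 was slightly higher against Atf4, at 42.3% and 44.4% with doxycycline and 39.2% and 37.4% in the controls, and Atf5 overlapped between groups, at 17.5% and 14.0% with doxycycline and 16.6% and 15.4% in the controls. Eif4ebp1 was slightly lower against Atf4, at 50.9% ± 1.88 with doxycycline and 54.7% ± 2.45 in the controls (SD, n = 2 each), as was Nupr1, at 36.0% and 37.8% with doxycycline and 38.2% and 42.8% in the controls. These ratios are descriptions and were not tested.

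**Figure D3:**
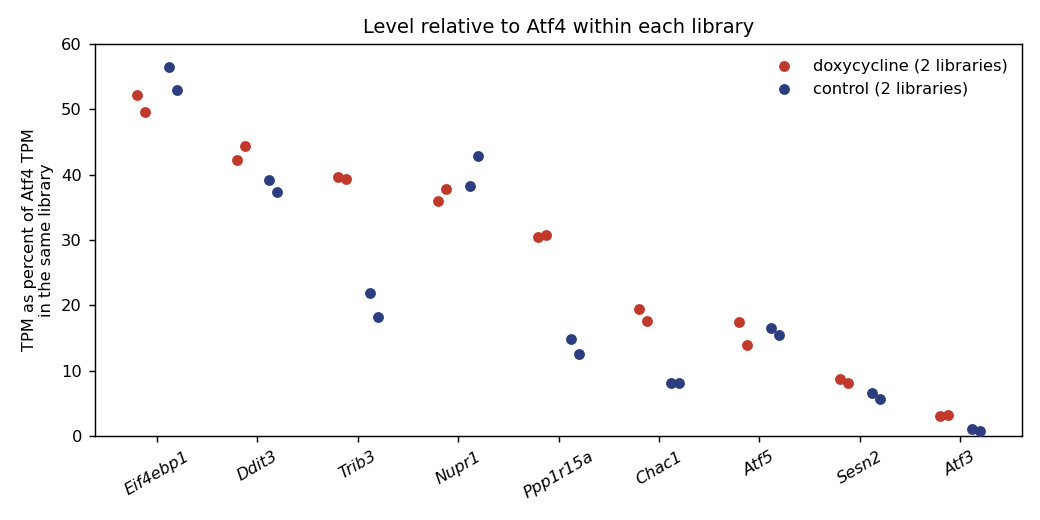
The TPM of 9 genes as a percentage of the Atf4 TPM of the same library, with 1 point for each library. Trib3, Ppp1r15a, Chac1, Atf3, Sesn2 and, by less, Ddit3 are higher relative to Atf4 with doxycycline, as at 39.6% and 39.3% against 21.9% and 18.2% for Trib3. Eif4ebp1 and Nupr1 are slightly lower, and the points of Atf5 overlap between the groups.

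ATF4 binds a composite element of a C/EBP site and an ATF site, and the letters TGATGNAA were taken as its core and searched on both strands in the 250 bases before the annotated starts of the genes (RefSeq, GRCm38.p6, an earlier build than the mm39 named for these data). Windows were found for 9 of the 10 genes, Eif4ebp1 being the other, and Atf5 had windows at a pair of starts. The core was present in 3 genes, Atf3, Chac1 and Nupr1, and in 3.45% of all 32851 windows. Their windows are shown because they hold the element and belong to genes at both ends of the range of change. Each match lies on the opposite strand and reads TTGCATCA, in capitals, at 110 to 103 bases before the start in Atf3 and in Nupr1 and at 193 to 186 bases before it in Chac1. The Atf3 window is chr1:191183334-191183583 on the minus strand, that of Nupr1 chr7:126625471-126625720 on the minus strand, and that of Chac1 chr2:119350992-119351241 on the plus strand, all in GRCm38.p6.
Atf3: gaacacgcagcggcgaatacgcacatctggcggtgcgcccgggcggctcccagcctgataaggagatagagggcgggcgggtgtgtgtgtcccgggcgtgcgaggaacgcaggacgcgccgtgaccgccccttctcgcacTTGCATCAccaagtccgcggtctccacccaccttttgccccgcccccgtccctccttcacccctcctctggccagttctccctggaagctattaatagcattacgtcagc
Nupr1: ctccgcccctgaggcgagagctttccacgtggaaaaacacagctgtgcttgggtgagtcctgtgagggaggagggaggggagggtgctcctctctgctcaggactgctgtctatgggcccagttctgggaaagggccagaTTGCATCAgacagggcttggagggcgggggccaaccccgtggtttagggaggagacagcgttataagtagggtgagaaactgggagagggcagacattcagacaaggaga
Chac1: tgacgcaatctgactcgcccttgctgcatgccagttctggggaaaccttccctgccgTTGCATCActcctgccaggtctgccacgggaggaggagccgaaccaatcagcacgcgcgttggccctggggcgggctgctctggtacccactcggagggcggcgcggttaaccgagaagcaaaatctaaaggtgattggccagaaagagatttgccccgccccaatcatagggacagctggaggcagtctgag

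The genes with the core spanned the whole range of change, with log2 fold changes of 2.72 for Atf3, 2.37 for Chac1 and 1.06 for Nupr1. Ppp1r15a, Trib3, Sesn2, Ddit3, Atf4 and Atf5 had no match in this window, and their log2 fold changes were 2.34, 2.17, 1.63, 1.38, 1.20 and 1.16. The full palindrome TGACGTCA, bound by CREB and ATF factors, was in the window of Ppp1r15a alone among the 9 genes, at 12 to 5 bases before its start, and in 1.55% of all windows. This motif was chosen after the sequences had been seen, does not overlap a match of TGATGNAA here, and shows only that the letters are present.

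Of 16 relatives of the 10 genes 5 rose and 5 fell, where 29.0% of all tested genes rose and 35.4% fell. Sesn1 and Sesn3, the other sestrins, fell while Sesn2 rose. Sesn1 had 26.6 and 22.6 TPM with doxycycline against 109 and 128 TPM in the controls (log2 fold change -2.22, limma adjusted p = 2.0e-07), and Sesn3 had 15.1 and 13.7 TPM with doxycycline against 41.0 and 41.7 TPM in the controls (log2 fold change -1.46). In the controls Sesn1 was thus the most abundant sestrin, and with doxycycline Sesn2 was. The tribbles pseudokinases split likewise. Trib2 had 1.18 and 1.06 TPM with doxycycline against 39.7 and 42.4 TPM in the controls (log2 fold change -4.31, limma adjusted p = 8.1e-09), and Trib1 had 14.2 and 14.9 TPM with doxycycline against 51.2 and 48.8 TPM in the controls (log2 fold change -1.71).

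Ppp1r15b, the constitutive counterpart of Ppp1r15a, rose as well but less, with 182 and 191 TPM with doxycycline against 119 and 117 TPM in the controls (log2 fold change 0.65, limma adjusted p = 1.2e-05). In the controls Ppp1r15b was above Ppp1r15a, and with doxycycline it was below it. Eif4ebp2 fell, with 56.8 and 59.0 TPM with doxycycline and 80.0 and 74.7 TPM in the controls (log2 fold change -0.41). Eif4ebp3 (log2 fold change 0.14, 95% interval -0.19 to 0.48) and Chac2 (-0.01, 95% interval -0.20 to 0.19) did not pass the test. Jdp2, the closest relative of Atf3, rose with a log2 fold change of 0.59, to 108 and 106 TPM with doxycycline against 71.6 and 70.0 TPM in the controls. Nupr1l, the relative of Nupr1, averaged below 2 TPM in both groups and did not pass. Among the ATF and CREB genes in the list of relatives, Atf6, an ER stress sensor, rose most, with a log2 fold change of 1.47. Over the 16 relatives 5 rose, 5 fell and 6 did not pass, with a median log2 fold change of 0.00312 beside -0.04 for all tested genes.

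**Figure D4:**
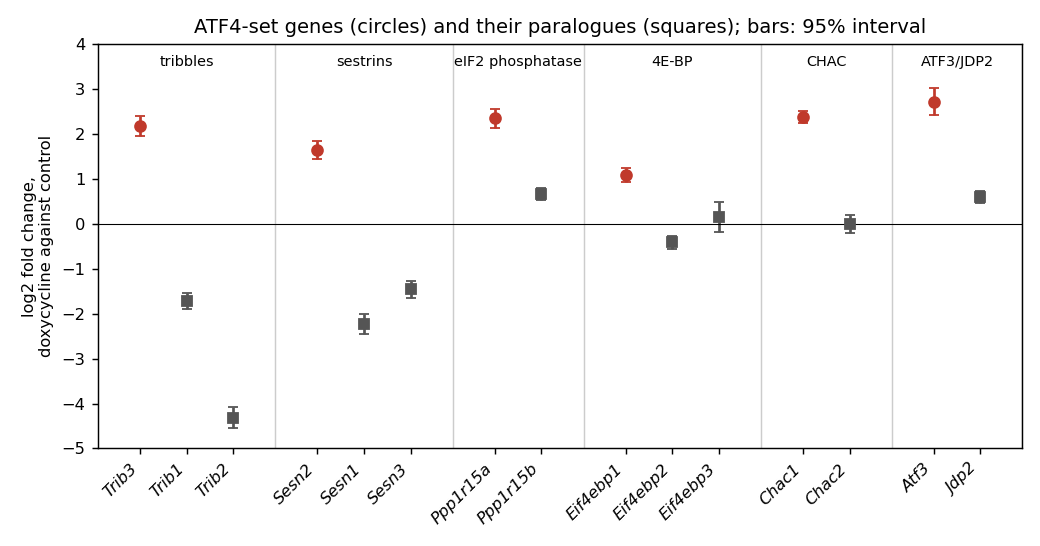
Log2 fold change, doxycycline against control, with limma's 95% intervals, for 6 of the 10 genes (circles) and their relatives (squares). Trib3 and Sesn2 lie above 0 at 2.17 and 1.63, while Trib1, Trib2, Sesn1 and Sesn3 lie below 0, between -1.46 and -4.31.

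Upstream of ATF4, the kinases of eIF2 did not rise in RNA level. Eif2ak3, which encodes PERK, the kinase that senses ER stress, fell to 26.6 and 24.3 TPM with doxycycline, against 54.2 and 56.2 TPM in the controls (log2 fold change -1.09, limma adjusted p = 2.4e-06). Eif2ak4 (GCN2, which senses uncharged tRNA) and Eif2ak2 (PKR, which senses double-stranded RNA) fell by 0.28 and 0.25 on the log2 scale. Eif2ak1, the haem-regulated kinase, did not pass the test (log2 fold change -0.15, 95% interval -0.28 to -0.01, adjusted p = 0.054). Of the 4 partners of the kinases 3 rose, and Impact, an inhibitor of GCN2 activation, did not pass (log2 fold change 0.07, limma adjusted p = 0.39). Gcn1, an activator of GCN2, rose with a log2 fold change of 0.35, and Dele1 and Oma1, which relay mitochondrial stress to the haem-regulated kinase, rose by 0.44 and 0.36. The libraries of Oma1 lay close together, at 16.6 and 13.9 TPM with doxycycline against 10.3 and 13.0 TPM in the controls. In all, 3 of these 8 genes rose and 3 fell, where 29.0% of all tested genes rose and 35.4% fell.

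Among eIF2, its exchange factor eIF2B and the phosphatase subunits, 11 of 16 rose and 2 fell, with a median log2 fold change of 0.41. Over all tested genes 29.0% rose and 35.4% fell. Eif2b3, a subunit of the exchange factor, rose most, with 114 and 113 TPM with doxycycline against 50.9 and 56.3 TPM in the controls (log2 fold change 1.07), followed by the eIF2 subunit Eif2s2 (0.77) and Eif2b1 (0.69). Eif2s1, which encodes the subunit that is phosphorylated, rose by 0.37. The catalytic subunits Ppp1cb and Ppp1cc fell by 0.18 and 0.45 on the log2 scale, and Ppp1ca did not pass (log2 fold change -0.09).

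The leucine zipper partners of ATF4 and CHOP were divided, with 6 of 15 tested genes higher and 8 lower and a median log2 fold change of -0.19. Over all tested genes 29.0% were higher and 35.4% lower. Cebpg, a frequent partner of ATF4, rose to 107 and 109 TPM with doxycycline, against 62.5 and 64.3 TPM in the controls (log2 fold change 0.76). Cebpd and Cebpb, inflammation-linked factors that can pair with CHOP, fell with log2 fold changes of -4.52 and -1.55. Cebpd was at 9.77 and 8.63 TPM with doxycycline against 228 and 236 TPM in the controls. Junb and Fos of the AP-1 family fell as well (log2 fold change -1.79 and -1.65), and Maf and Nfe2l1 rose (0.95 and 0.74).

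Most genes on the lists of other ATF4 targets rose too. These lists were chosen with earlier results of these data known. Of 21 tested genes on the list of amino acid targets 19 rose and 1 fell, with a median log2 fold change of 1.43. Beside genes of amino acid synthesis and uptake, that list holds folate enzymes and the tRNA exporter gene Xpot. Over all tested genes 29.0% rose and 35.4% fell. Cth, an enzyme of cysteine synthesis, rose most, with 92.0 and 103 TPM with doxycycline against 13.2 and 13.7 TPM in the controls (log2 fold change 2.77). Next came the mitochondrial folate enzyme Aldh1l2 (2.11), the leucine transporter Slc7a5 (1.91) and the proline enzyme Pycr1 (1.89). The amino acid transporter Slc36a4 fell (-0.79), and the glutamine transporter Slc38a2 did not pass (0.04, 95% interval -0.10 to 0.19). All 12 aminoacyl-tRNA synthetases on the list rose, with a median log2 fold change of 1.14, led by Wars (1.90), Lars (1.60), Nars (1.41) and Eprs (1.31). Of 18 secreted and other targets 14 rose and 4 fell. The hormone gene Fgf21 rose most, to 57.9 and 58.1 TPM with doxycycline against 2.70 and 1.86 TPM in the controls. Avil, Stbd1 and Soat2 rose with log2 fold changes of 2.47, 2.34 and 2.33. The 4 that fell were Vegfa (-0.83), Ddit4 (-1.23), Cebpb (-1.55) and Klhl24 (-1.68). Ddit4 encodes an inhibitor of mTORC1, as Sesn2 does, and it was at 56.5 and 53.4 TPM with doxycycline against 128 and 132 TPM in the controls.

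Targets of the other arms of the ER stress response moved in both directions. Of 22 genes 7 rose and 10 fell, with a median log2 fold change of -0.06. Over all tested genes 29.0% rose and 35.4% fell. The chaperone gene Hspa5 rose, with 2803 and 3179 TPM with doxycycline against 923 and 951 TPM in the controls (log2 fold change 1.67), as did Atf6, Ern1 (0.71) and Hyou1 (0.69). The folding genes Pdia3, Pdia6, Pdia4 and Calr fell, by 0.56, 0.41, 0.33 and 0.31 on the log2 scale. Of 10 tested genes linked to CHOP and cell death 3 rose and 6 fell, and the list holds both death-promoting and survival genes. Bbc3, which promotes death, rose (log2 fold change 0.62), while the survival genes Bcl2 and Mcl1 fell (-0.58 and -0.39). Ero1a, an ER oxidase described as a CHOP target, rose to 235 and 272 TPM with doxycycline against 117 and 127 TPM in the controls (log2 fold change 1.05), and the death receptor gene Tnfrsf10b rose by 0.34. Bcl2l11, which encodes the death-promoting protein BIM, fell to 4.23 and 4.61 TPM with doxycycline against 17.9 and 18.1 TPM in the controls (log2 fold change -1.81), and the inflammatory caspase genes Casp12 and Casp4 fell (-1.48 and -0.77). Of 13 genes of the mitochondrial unfolded protein response, to which ATF5 is linked, 9 rose and 1 fell, with a median of 0.70. Lonp1, Hspe1, Hspd1 and Dnaja3 rose most, with log2 fold changes between 1.30 and 1.67.

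**Figure D5:**
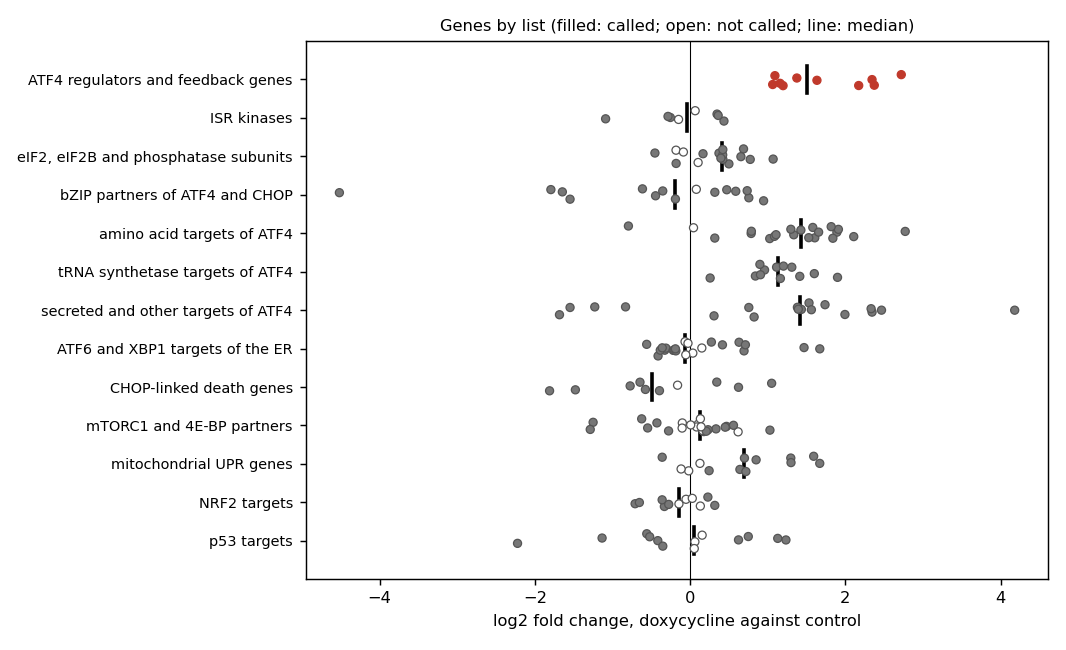
Log2 fold change of each tested gene, doxycycline against control, by list, with filled points for genes that passed the test, open points for those that did not, and a line at each median. The 10 genes have a median of 1.50 and lie beside the amino acid, tRNA synthetase and secreted targets of ATF4 (1.43, 1.14 and 1.41), while the list of kinases and their partners has a median of -0.04. The 10 genes and the lists were chosen with earlier results of these data known.

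The genes whose levels over the 4 libraries lay nearest to Atf4, by Euclidean distance on log2(TPM + 1) after the control mean was taken off, were Ghitm, Tars, Ldlrad3, Grwd1 and F3. Their distances were 0.0143 to 0.0446, and their log2 fold changes 1.18 to 1.21. Tars encodes a tRNA synthetase, Grwd1 a ribosome biogenesis factor and F3 tissue factor. Of the other 9 genes Eif4ebp1 was the nearest to Atf4, at 0.170, with 82 genes outside the set nearer. With 2 groups of 2 libraries this likeness mostly restates the size of the change.

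No near-identical pseudogene was found for any of the 10 genes in GENCODE M21 (97% identity or more over at least 100 bases). Exons of Atf5, Ddit3 and Ppp1r15a overlap exons of genes on the opposite strand there, with longest overlaps of 82 bases for Atf5 with Nup62, 68 bases for Ddit3 with Mars1 and 11 bases for Ppp1r15a with Tulp2. The sources used here do not give the strand setting of the counting, so reads in those stretches cannot be told apart. Nup62 had 123 and 128 TPM with doxycycline against 98.7 and 91.0 TPM in the controls, and Mars1 had 155 and 143 TPM with doxycycline against 127 and 122 TPM in the controls. Both moved less than the gene they overlap, and Tulp2 stayed below 2 TPM in every library. These levels come from the same counting, and the part of the overlaps in the changes was not tested.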

How the data were processed

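The 10 genes, the gene lists and the tests were chosen with earlier results of these data known. The authors deposited TPM in 1 table and FPKM in another, per the file headers, each with a column for each of the 4 libraries. The submitters' processing notes name genome build mm39. Aligner, quantifier and annotation: not given in the sources used here. Within a library the deposited TPM were 3.08 to 3.14 times the deposited FPKM, so both hold the same estimates. Mitochondrial-encoded genes were not among the listed genes.

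Groups came from the sample titles. Genes averaging 1 TPM or more were tested on log2(TPM + 1) in R 4.3.3 with limma 3.58.1 (lmFit, and eBayes with trend), comparing 2 doxycycline with 2 control libraries without a covariate, with Benjamini-Hochberg adjustment over all 11359 tested genes. There were 2 residual degrees of freedom, and limma added 6.98 prior ones. Named genes were each of the 10, up to 4 passing genes with the largest change in each list, genes tied by name to one of the 10, and the 5 genes nearest to Atf4. Further list members, among them Slc36a4, Vegfa, Ddit4, Klhl24, Cebpg, Maf, Nfe2l1, Pdia3, Calr, Tnfrsf10b, Bbc3, Bcl2, Mcl1, Cdkn1a and Mdm2, were named after their values were seen. Promoter windows were matched by symbol to RefSeq (GRCm38.p6), and copies were sought with blastn 2.17.0 against 13607 pseudogene transcripts. Tables were handled with Python 3.11.15 and pandas 2.3.3. The replicate numbers are shared by the groups in the titles, but no label says that they mark a shared day or stock.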

Additional observations from a re-analysis of the deposited data

How the results depend on the processing

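Under all 15 alternatives the 10 genes stayed higher with doxycycline and past the threshold: pseudocounts of 0.1 and 0.5, no minimum level or one of 5 TPM, the FPKM table, quantile normalization, median-of-ratios scaling, rescaling without ribosomal protein genes, no trend or a robust fit of the variance, a replicate block, and each library left out. The highest adjusted p over these settings was 0.0014 (Atf5, with no minimum level). Log2 fold changes ranged from 0.98 (Nupr1, without doxycycline replicate 2) to 2.93 (Atf3, without control replicate 1). A library left alone in its group takes its variance from the other group. Over all tested genes 7312 were called, and 6249 to 6723 with a library left out. Same-numbered libraries did not deviate together (correlation -0.0053 over 11359 genes), and the replicate block gave 7501 calls over all genes and again 10 of the 10. Among called genes 3295 were higher and 4017 lower, against 3649 and 3672 under median-of-ratios scaling and 3870 and 3356 under quantile normalization. Depth is unknown, and 2 libraries a group limit the precision.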

Other observations

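Sesn2 is also known as a target of p53 and of NRF2, and lists of both pathways moved in both directions. Whether either pathway had a part in the rise of Sesn2 was not tested. Of 13 tested genes of the p53 pathway 4 rose and 6 fell, with a median log2 fold change of 0.05. Over all tested genes 29.0% rose and 35.4% fell. Aen, an exonuclease of apoptosis, rose to 45.1 and 45.7 TPM with doxycycline against 20.2 TPM in both controls, and Eda2r, a death-domain receptor, rose with a log2 fold change of 1.23. Sesn1 and Trp53inp1 fell (-2.22 and -1.13). Cdkn1a and Mdm2, widely used p53 targets, fell by 0.42 and 0.35 on the log2 scale, and Trp53 itself rose by 0.75. Bbc3, on this list too, rose by 0.62, and Bax and Ccng1 did not pass the test. Of 11 tested NRF2 targets, genes of the antioxidant response, 2 rose and 5 fell, with a median of -0.14. Nqo1 fell to 22.6 and 21.8 TPM with doxycycline against 35.6 and 38.3 TPM in the controls, Osgin1, Hmox1 and Gclm fell by 0.65, 0.36 and 0.33 on the log2 scale, and Slc7a11, the cystine transporter that ATF4 and NRF2 share, rose by 0.32.

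Among 23 genes around mTORC1 and eIF4E, on which Sesn2 and Eif4ebp1 act, 7 rose and 6 fell, with a median log2 fold change of 0.13. Over all tested genes 29.0% rose and 35.4% fell. Rheb, the GTPase that activates mTORC1, rose to 309 and 305 TPM with doxycycline against 159 and 142 TPM in the controls (log2 fold change 1.03). Castor2 and the arginine sensor Castor1 fell (-1.29 and -0.62), as did Deptor (-1.25). Eif4e, the partner of the Eif4ebp1 protein, did not pass the test, with 294 and 127 TPM with doxycycline and 171 and 91.7 TPM in the controls. That spread within groups was far wider than that of the 10 genes, and replicate 1 was the higher in both groups.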
